A study of Mus musculus with 5 samples.

Results

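The genes described here encode the protein subunits of the mouse mitochondrial ribosome, taken as every gene symbol made of Mrpl or Mrps, a number and at most 1 letter. The rule picked 78 of the 24843 symbols in the transcript tables, 51 of the large subunit, 26 of the small subunit and Mrps36, which was kept apart because its product is now placed in the 2-oxoglutarate dehydrogenase complex. The 78 members were spread over 17 chromosomes, 11 of them on chromosome 11, and were listed as 125 RefSeq transcripts. Expression was compared between neural stem cells (NSC, 2 libraries, passages 5 to 8), a primary culture from the cortex of mouse embryos grown on poly-L-ornithine and laminin with EGF and bFGF, and STO cells (3 libraries, more than 30 passages), an established line of embryonic fibroblasts grown in DMEM with serum and often used as a feeder layer. Both are labelled C57BL/6, although the growth notes describe the STO line as coming from SIM mouse embryos and as resistant to thioguanine and ouabain. No label names an added allele or a treatment. The study set these cells beside germline stem cells as an adult stem cell and a somatic reference, and the RNA was read as poly(A)-selected libraries. No label says that replicates of a cell type came from separate cultures, so each p-value measures the spread between these libraries only.

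Mitochondria keep their own ribosome, which translates the few messages of the mitochondrial genome, all of them for core subunits of the respiratory chain and the ATP synthase. Its ribosomal RNAs are made inside the organelle, while every protein subunit is encoded in the nucleus, made in the cytoplasm and imported. Some subunits descend from the bacterial ribosome of the mitochondrial ancestor and sit around the decoding and peptidyl transfer sites, and others were acquired later and lie mostly on the outside. No transcript of the mitochondrial chromosome was listed in the tables, so the ribosomal RNAs and the messages that this ribosome reads were not analysed here.

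The values are FPKM (fragments divided by transcript length and library size), summed over the transcripts of a symbol. The deposited FPKM summed to between 385485 and 446393 per library, and the deposited confidence intervals implied between 15223341 and 22271895 fragments per library. Behind the values of the 77 members above 0, the implied number of fragments was at least 135 in every library, and the median member had 605 fragments in its poorest library, which covers counting error only. Of the NSC markers, Nes was at 176 and 169 FPKM, Sox2 at 308 and 276 FPKM and Olig2 at 499 and 493 FPKM in NSC, with Pax6 lower at 5.04 and 5.22 FPKM. In STO, Nes reached at most 0.0724 FPKM, and Sox2, Pax6 and Olig2 were listed at 0 in every library. The fibroblast markers Col1a1, Col1a2, Col3a1, Fn1, Pdgfrb and Thy1 summed to between 1352 and 1462 FPKM in STO and to 5.05 and 5.12 FPKM in NSC. The NSC libraries also held 115 FPKM of neuron markers, mostly Map2, 64.5 FPKM of astrocyte markers and 114 to 117 FPKM of oligodendrocyte markers, of which Mbp made up 83.4 and 88.3 FPKM, while these lists reached 12.8, 0.219 and 1.14 FPKM in STO. Endothelial and blood markers stayed under 0.2 FPKM in all 5 libraries. The part of these other cell types in the results was not tested, and in such bulk samples fewer cells of a type and less RNA per cell cannot be told apart.

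The promoters of 5 members are shown first, the pair with the largest rise in STO cells and 3 of those with the largest fall. Each runs from 200 bases before the transcription start to 20 bases of the transcript, 5′ to 3′ on the strand of the gene, as RefSeq gives it in GRCm38.p6. Capitals mark CGGAAG, the core that ETS factors such as GABP bind, CACGTG, an E-box, and the match to the NRF1 motif, searched on both strands. The windows were chr5:31613751-31613970 (+), chr5:100798559-100798778 (+), chr6:39810917-39811136 (-), chr8:71464726-71464945 (+) and chr14:57826039-57826258 (+), in the order printed.
Mrpl33: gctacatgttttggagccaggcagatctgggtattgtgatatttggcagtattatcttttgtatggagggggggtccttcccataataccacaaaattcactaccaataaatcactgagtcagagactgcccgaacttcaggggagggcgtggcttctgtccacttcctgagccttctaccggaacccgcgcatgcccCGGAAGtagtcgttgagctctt
Mrps18c: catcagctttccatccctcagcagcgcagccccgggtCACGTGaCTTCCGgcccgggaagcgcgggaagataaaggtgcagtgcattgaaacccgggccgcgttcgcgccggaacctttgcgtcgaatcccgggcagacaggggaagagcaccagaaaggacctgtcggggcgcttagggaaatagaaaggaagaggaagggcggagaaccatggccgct
Mrps33: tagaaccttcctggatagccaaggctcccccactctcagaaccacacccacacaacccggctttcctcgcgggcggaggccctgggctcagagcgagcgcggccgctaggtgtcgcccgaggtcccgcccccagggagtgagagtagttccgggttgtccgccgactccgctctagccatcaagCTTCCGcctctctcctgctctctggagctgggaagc
Mrpl34: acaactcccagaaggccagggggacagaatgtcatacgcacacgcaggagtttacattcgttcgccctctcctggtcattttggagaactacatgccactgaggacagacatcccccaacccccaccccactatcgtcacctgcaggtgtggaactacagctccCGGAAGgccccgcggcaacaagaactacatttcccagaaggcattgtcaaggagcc
Mrpl57: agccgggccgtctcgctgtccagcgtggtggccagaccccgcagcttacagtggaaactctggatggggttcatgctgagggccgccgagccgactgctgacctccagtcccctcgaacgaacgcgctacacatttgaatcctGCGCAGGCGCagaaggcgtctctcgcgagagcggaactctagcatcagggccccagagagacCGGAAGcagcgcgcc
All 5 carried the ETS core, but they are a selection. Mrpl28, another riser, and Mrpl23, which fell more than Mrpl57, held no match to any motif searched. Counting the first transcribed base as position 0, it began at -2 in Mrpl33, at -156 in Mrps18c, just after the E-box at -163, at -16 in Mrps33, at -36 in Mrpl34 and at 5 in Mrpl57, whose NRF1 match began at -57. Within this selection, genes that rose and genes that fell both held the ETS core in the window shown.

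Most subunits of the mitochondrial ribosome were lower in STO cells than in NSC. Of the 77 members tested, 56 were lower in STO (limma on log2(FPKM + 1), Benjamini-Hochberg adjusted over the 12277 genes tested), where 43.7% of all tested genes were lower, and 5 were higher, where 41.9% of all tested genes were higher. Past the test in either direction were 85.7% of all tested genes. The median difference was -0.49 on the log2 scale over the members, with a range from -1.98 to 1.25, and -0.02 over all tested genes. Every STO value lay below every NSC value in 63 members, against 46.0% of all tested genes, and above in 5, against 43.9%. A fall of at least 1 on the log2 scale was seen in 17 members and a rise of that size in 1. Of all tested genes 21.3% and 17.1% were past these limits. The share of members with a large fall was thus near the background, and that with a large rise was below it. Mrpl48, a large subunit gene that overlaps the Rab6a locus, was listed at 0 in all 5 libraries with 7 transcripts and was not tested.

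**Figure D1:**
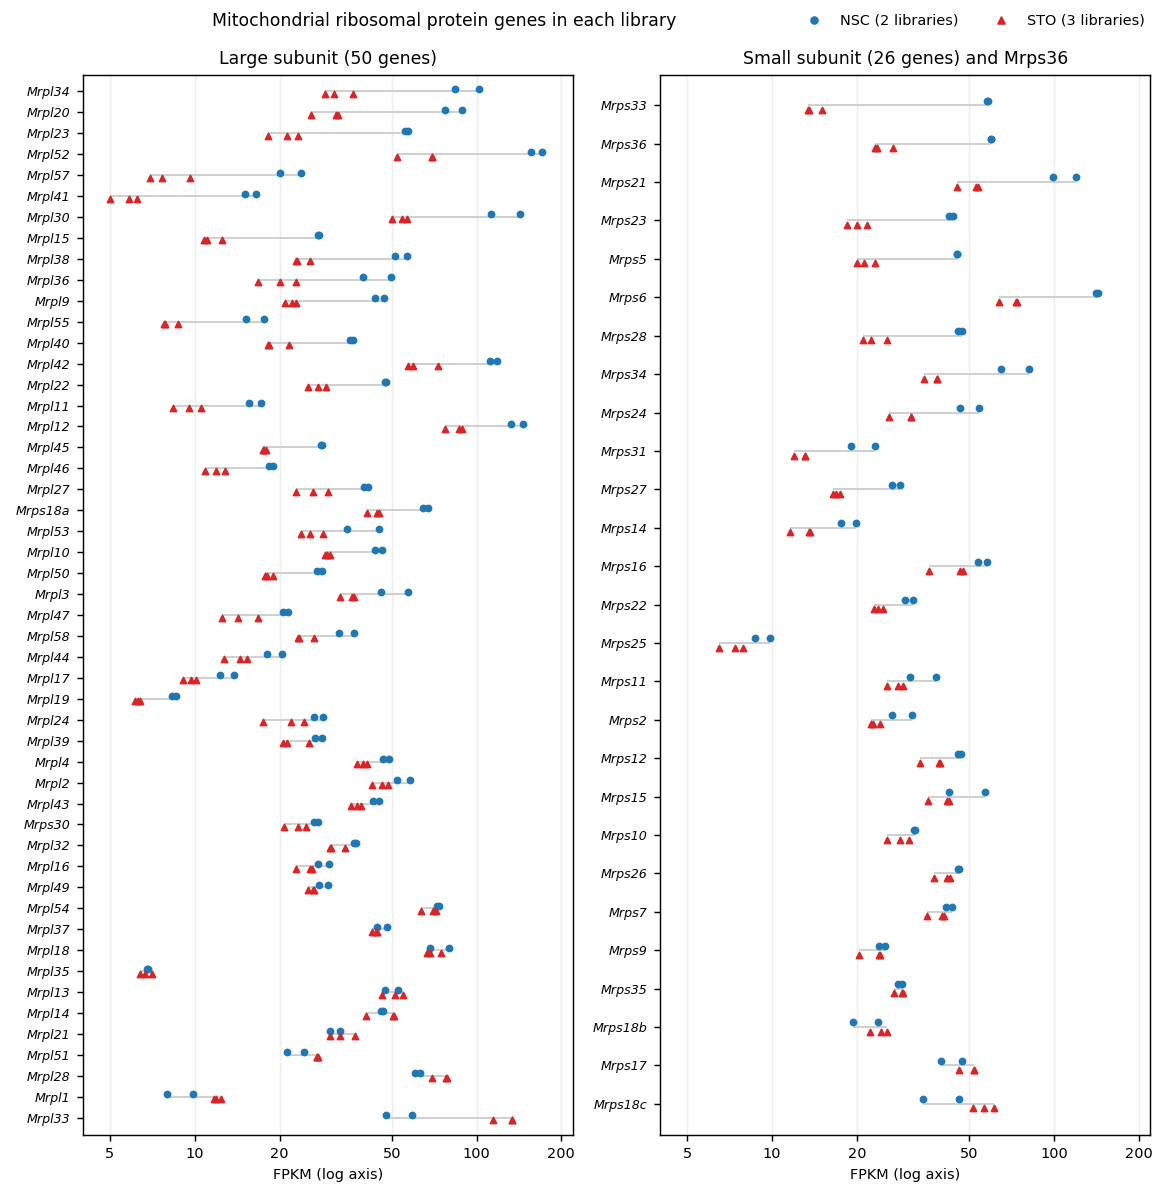
FPKM of each tested member (log axis) in the 2 NSC libraries (blue circles) and the 3 STO libraries (red triangles), sorted by the difference, with a grey line from the lowest to the highest library. The 3 STO libraries lie to the left of both NSC libraries in 63 rows, Mrps33 shows the widest gap of the small subunit, and the 5 genes higher in STO stand at the bottom.

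In levels, the members together summed to 3404 and 3685 FPKM in NSC and to 2499, 2256 and 2563 FPKM in STO, which is 31.2% lower in the mean (3545 ± 198, SD, n = 2, against 2440 ± 162, SD, n = 3). As a share of all FPKM in a library this was 0.797% ± 0.0402 in NSC and 0.619% ± 0.0295 in STO, or 22.4% lower. The median member stood at 41.9 FPKM in NSC and 25.7 FPKM in STO. The groups did not overlap in the sum, the share or the median. STO replicate 2 had the lowest FPKM of the STO libraries in 61 of the 77 members and NSC replicate 1 the lower of the NSC libraries in 58. With any 1 library left out, the median difference lay between -0.54 and -0.41 over the members and between -0.042 and -0.0057 over all tested genes.

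**Figure D2:**
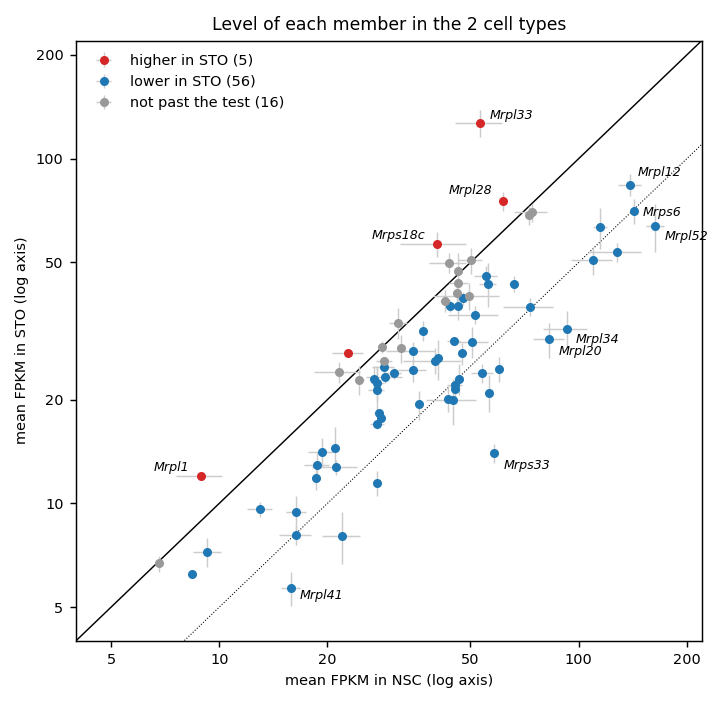
Mean FPKM of each member in NSC (horizontal, n = 2) against STO (vertical, n = 3), both on log axes, with bars of 1 SD; the solid line marks equal levels and the dotted line a level in STO of 0.5 times that in NSC. Mrpl33 stands above the solid line at 127 FPKM in STO, and Mrps33 is farthest below it.

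Subunits of 1 ribosome were listed at unequal levels, and this order was largely shared by the cell types. Levels across the 77 members on the log2 scale correlated with r between 0.987 and 0.994 for the 4 pairs of libraries of 1 cell type and with r between 0.805 and 0.826 for the 6 pairs across cell types, a description over genes that share libraries. Mrpl52, a large subunit protein without a bacterial counterpart, was highest in NSC at 157 and 170 FPKM and fell to 69.6, 52.2 and 69.8 FPKM in STO (log2 difference -1.35, SE 0.137, adjusted p = 0.000117 by limma). Mrpl12, the factor-binding stalk protein that also binds the mitochondrial RNA polymerase, gave 132 and 147 FPKM in NSC and 88.6, 77.3 and 86.5 FPKM in STO (-0.72, adjusted p = 0.000217). It kept its place, ranking 3 in NSC and 2 in STO. Mrps6, a small subunit protein of bacterial descent, was at 141 and 144 FPKM in NSC and 73.6, 63.8 and 74.2 FPKM in STO (-1.005, adjusted p = 3.4e-05), and its locus also holds Slc5a3 on the same strand, so part of its fragments may be shared. Mrpl30, also of bacterial descent, gave 113 and 143 FPKM against 54.2, 49.9 and 56.5 FPKM (-1.23, adjusted p = 6.58e-05). In these 4 genes each STO library was below both NSC libraries.

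At the other end, Mrpl35 was listed at 6.77 and 6.85 FPKM in NSC and 6.63, 6.38 and 7.07 FPKM in STO, so the cell types overlapped (-0.02, adjusted p = 0.73). Mrpl19 was at 8.28 and 8.55 FPKM in NSC and at 6.36, 6.11 and 6.27 FPKM in STO (-0.38, adjusted p = 0.000529). Mrps25, of the mitochondrial part of the small subunit, was at 9.86 and 8.69 FPKM in NSC and at 7.86, 6.49 and 7.38 FPKM in STO (-0.32, adjusted p = 0.0161), with adjusted p of 0.162 and 0.055 when NSC replicate 1 or 2 was left out. Mrpl19 and Mrps25 were lower in every STO library, and these last places were the same in both cell types within 2 ranks. Between the cell types, 13 members moved by more than 20 places, among them Mrps33 from 15 to 64, Mrpl23 from 16 to 55 and Mrps18c from 41 to 9.

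Both subunits were mostly lower in STO. In the small subunit, 17 of 26 genes were lower and 1 was higher in STO, with a median difference of -0.33, and in the large subunit 38 of 50 were lower and 4 higher, with a median of -0.52. The summed FPKM fell by 31.5% in the mean for the small and 30.3% for the large subunit. Of the 48 members with a counterpart in the bacterial ribosome, 33 were lower and 4 higher (median -0.37). Of the 28 tested members without such a counterpart, 22 were lower and 1 higher (median -0.59). Of all tested genes, 43.7% were lower and 41.9% higher. After the correction for transcript length described with the length classes, the counts were 14 lower and 8 higher in the small subunit, 25 and 13 in the large subunit, 21 and 17 with a bacterial counterpart and 18 and 4 without. No test was made between these groups.

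The largest falls were found in both subunits. Mrps33, a small subunit protein that bacteria lack (mm9 chr6:39751807-39760935), was at 58.4 and 58.1 FPKM in NSC and at 15.1, 13.5 and 13.4 FPKM in STO. It was thus 4.16 times higher in NSC, with no overlap and little spread in either cell type (-1.98, SE 0.0648, adjusted p = 4.52e-07). Mrpl34 (chr8:73988825-73989652), of bacterial descent, gave 83.6 and 102 FPKM in NSC and 36.5, 28.9 and 31.1 FPKM in STO (-1.50, SE 0.124, adjusted p = 4.28e-05). Mrpl20 (chr4:155176987-155182940), whose bacterial relative binds ribosomal RNA early in assembly, gave 77.1 and 88.8 FPKM in NSC and 32.3, 25.9 and 31.7 FPKM in STO (-1.44, SE 0.114, adjusted p = 3.32e-05). Both lost more than 20 places in rank.

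Mrpl23 (chr7:149719022-149726647), which lies by the exit of the nascent chain, was at 55.8 and 56.9 FPKM in NSC and at 23.3, 18.2 and 21.3 FPKM in STO (-1.39, SE 0.101, adjusted p = 2.23e-05), and a named pseudogene of it exists to which fragments could also belong. Mrpl57 (chr14:58445076-58447582), a mitochondrial protein of the large subunit, was at 20.1 and 23.8 FPKM in NSC and at 9.61, 6.95 and 7.62 FPKM in STO (-1.35, SE 0.137, adjusted p = 0.000121). All STO values of these 2 genes were below all NSC values. Mrps36 was at 60.0 and 60.1 FPKM in NSC and at 26.8, 23.2 and 23.6 FPKM in STO (-1.26, SE 0.0734, adjusted p = 7.47e-06), although it also has named pseudogenes.

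Against this direction, 5 members rose in STO cells. Mrpl33, a small protein of the large subunit with a bacterial relative (chr5:31916324-31925017), was at 47.6 and 58.9 FPKM in NSC and at 134, 114 and 134 FPKM in STO. It was 2.39 times higher in STO and went from rank 20 to rank 1 (1.25, SE 0.115, adjusted p = 7.49e-05), and it was the single member with a rise of at least 1 on the log2 scale. The 3 STO libraries were all above both NSC libraries.

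Mrps18c (chr5:101227778-101233486), in the small subunit, rose from 34.3 and 46.2 FPKM in NSC to 56.5, 51.8 and 61.4 FPKM in STO (0.49, SE 0.135, adjusted p = 0.0133). Its NSC libraries differed more than its STO libraries, and without NSC replicate 1 the difference was 0.28 with an adjusted p of 0.104. Mrpl1 (chr5:96639134-96695746), of the mobile stalk beside the site where spent tRNA leaves, rose from 7.97 and 9.82 FPKM to 11.9, 11.7 and 12.3 FPKM (0.40, SE 0.0876, adjusted p = 0.00504). Mrpl28 rose from 60.5 and 62.8 FPKM to 78.3, 69.6 and 77.7 FPKM (0.28, SE 0.0691, adjusted p = 0.00862), with adjusted p of 0.0796 and 0.0521 when NSC replicate 1 or 2 was left out. Mrpl51, the single riser without a bacterial relative, rose from 24.4 and 21.2 FPKM to 27.2, 27.1 and 27.4 FPKM (0.25, SE 0.0685, adjusted p = 0.0138). These 5 stayed past the test as higher under all 5 scalings tried, and Mrpl33, Mrpl1 and Mrpl51 also with any library left out.

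The Mrps18 paralogs, 3 related proteins that occupy different places in the ribosome, went different ways. Mrps18a, which sits in the large subunit despite its name, fell from 64.6 and 67.2 FPKM to 44.3, 40.8 and 45.1 FPKM (-0.59, SE 0.0628, adjusted p = 0.000149), Mrps18c rose as above, and Mrps18b, in the small subunit, overlapped between the cell types at 23.8 and 19.3 FPKM in NSC and 25.5, 24.4 and 22.2 FPKM in STO (0.16, adjusted p = 0.189). Mrps18b was called higher in TPM (0.33, adjusted p = 0.027) and after the length correction described below (0.61). The ratio of Mrps18c to Mrps18a was 0.531 and 0.688 in NSC and 1.27, 1.27 and 1.36 in STO, so the more abundant of this pair was Mrps18a in each NSC library and Mrps18c in each STO library. For Mrps18c to Mrps18b the ratio was 1.44 and 2.39 in NSC and 2.22, 2.12 and 2.76 in STO, and the cell types overlapped.

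Mrps12, Mrpl11 and Mrps30 were lower in STO. Mrps12 is part of the decoding centre, and its level was 45.6 and 46.8 FPKM in NSC and 39.5, 33.6 and 39.1 FPKM in STO (-0.30, adjusted p = 0.0127), a call that was lost when NSC replicate 1 or 2 was left out (adjusted p = 0.0906 and 0.116). Mrpl11, at the base of the factor-binding stalk, was at 17.1 and 15.6 FPKM in NSC and at 9.51, 8.36 and 10.5 FPKM in STO (-0.73, adjusted p = 0.000451). Mrps30, a large subunit protein that bacteria lack, was at 26.5 and 27.4 FPKM in NSC and at 20.7, 23.3 and 24.9 FPKM in STO (-0.23, adjusted p = 0.0391), and its call was lost when either NSC library or STO replicate 1 or 2 was left out, with adjusted p between 0.0651 and 0.216. The 3 genes were lower in every STO library.

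Mrpl58, a peptidyl-tRNA hydrolase built into the large subunit that frees stalled chains, fell from 32.4 and 36.7 FPKM to 23.2, 23.4 and 26.4 FPKM (-0.49, SE 0.0841, adjusted p = 0.00159). Its sum hid opposite changes of 2 transcripts. The transcript NM_001347645 (chr11:115265066-115273988) went from 16.5 and 20.7 FPKM in NSC to 4.32, 4.42 and 4.02 FPKM in STO, and NM_026729 (chr11:115265080-115272227) from 15.9 and 16.1 FPKM to 18.8, 18.9 and 22.4 FPKM. In a fit over all 16257 transcripts with a mean of at least 1 FPKM in a cell type, chosen after the values were seen, the first was lower (-1.89, SE 0.108, adjusted p = 9.8e-05) and the second higher (0.30, SE 0.0898, adjusted p = 0.0312), where 39.0% of all transcripts were lower and 38.1% higher. The total fall of Mrpl58 was thus carried by 1 of its transcripts.

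Mrpl15, a large subunit protein with a bacterial relative, showed a like split. NM_025300 fell from 20.3 and 19.4 FPKM to 3.75, 4.05 and 5.57 FPKM (-1.95, SE 0.158, adjusted p = 0.000319), while NM_001177658 was at 7.22 and 8.05 FPKM in NSC and at 7.04, 7.01 and 6.97 FPKM in STO (-0.11, adjusted p = 0.165). In Mrpl1, NM_053158 rose from 4.68 and 4.42 FPKM to 8.42, 8.97 and 7.85 FPKM (0.76, SE 0.0712, adjusted p = 0.000538), and NM_001039084 overlapped between the cell types at 3.29 and 5.4 FPKM in NSC and 3.51, 2.77 and 4.49 FPKM in STO (-0.21, adjusted p = 0.468). In Mrpl30 both transcripts fell alike, by 1.13 and 1.25 on the log2 scale. A second transcript of Mrpl10 was at 6.82 and 6.16 FPKM in NSC, one of Mrps36 was at 6.47 and 7.65 FPKM, and both were listed at 0 in the 3 STO libraries. Of the 22 members with several transcripts, 10 had at least 2 transcripts in this fit, and 35 of their 69 transcripts were listed at 0 in all libraries. Transcripts of 1 gene share most of their sequence, and the assignment of fragments among them is an estimate.

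**Figure D3:**
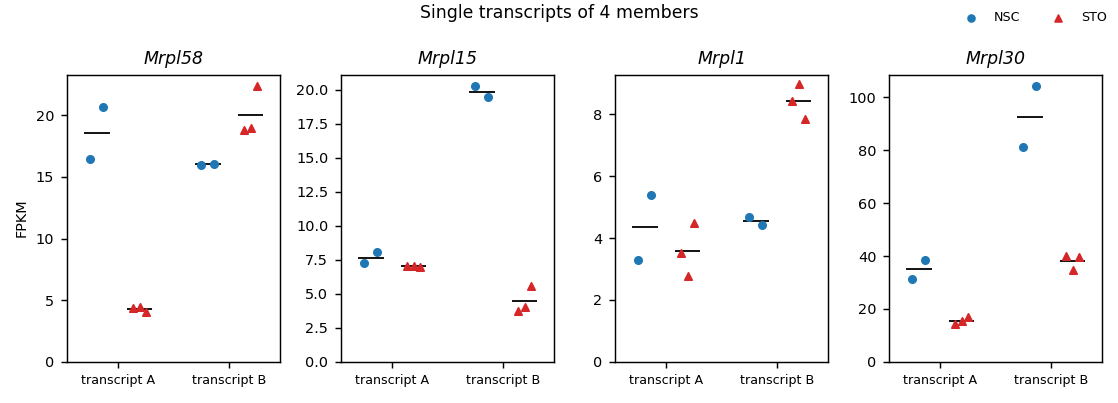
FPKM of the single transcripts of Mrpl58, Mrpl15, Mrpl1 and Mrpl30 in each NSC library (blue circles) and STO library (red triangles), with a black line at the mean; A and B are, in Mrpl58, NM_001347645 and NM_026729, in Mrpl15, NM_001177658 and NM_025300, in Mrpl1, NM_001039084 and NM_053158, and in Mrpl30, NM_001356482 and NM_027098. In Mrpl58 transcript A drops to about 4 FPKM in STO while B does not, and in Mrpl30 both drop.

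The transcripts of the members are short, and short genes outside the family were also mostly lower in STO. Up to 750 bases, 73.7% of these other genes were lower and 16.7% higher. The median length was 1213 bases over the 77 tested members, from 412 bases in Mrpl52 to 6073 bases in Mrps25, and 3103 bases over all tested genes. Length was taken from the longest annotated coding transcript of a symbol, which need not be the transcript whose FPKM was used. Single members may thus stand in a wrong length class, and their corrected values are approximate. Genes outside the family had a median difference of -0.73 at up to 750 bases, -0.54 from 750 to 1000, -0.35 from 1000 to 1500, -0.10 from 1500 to 2000 and 0.17 above 5000 bases. The 26 members of up to 1000 bases had a median difference of -0.82, and the longer members of -0.32. From 1000 to 1500 bases, the largest class with 21 members, 13 members were lower and 1 higher. Of the other genes of that length 55.6% were lower and 26.6% higher, and the members' median of -0.27 was above theirs. From 1500 to 2000 bases 7 of 10 members were lower with a median of -0.63, beside 45.4% of the other genes. From 2000 to 3000 bases 8 of 11 members were lower and 2 higher with a median of -0.49. The other genes of that length stood at -0.003, with 41.7% lower and 42.1% higher. With the trend on length subtracted in each library, 40 members were lower and 21 higher, with a median of -0.18, against 42.8% of all genes lower and 43.6% higher. Of the 56 members lower before, 39 were lower, 11 were not past the test and 6 were higher after this correction, and the 5 risers stayed higher.

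**Figure D4:**
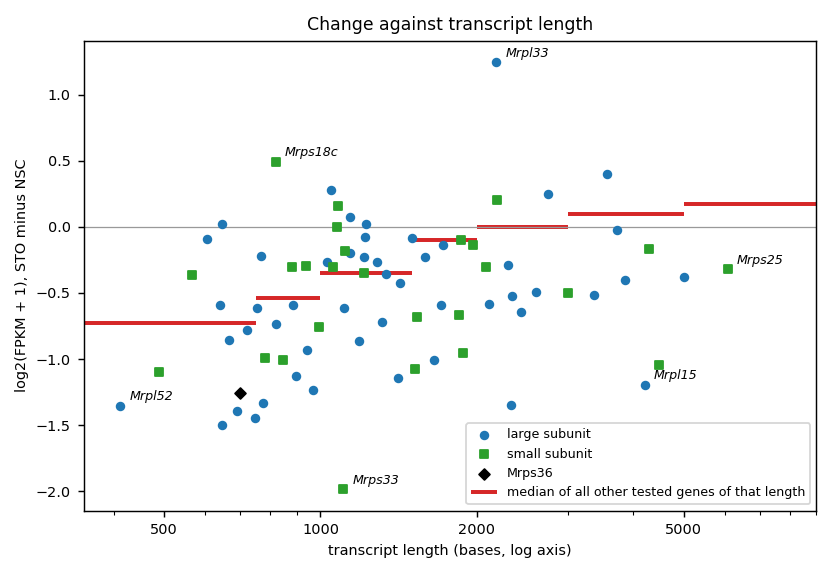
Difference of each member on log2(FPKM + 1), STO minus NSC, against the length of its longest coding transcript (bases, log axis), with the median of all other tested genes in 7 length classes as red bars. The red bars climb from -0.73 at the shortest to 0.17 at the longest genes, and members longer than 1500 bases lie mostly below the bars.

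The calls of several named members changed with this correction. Mrps33 fell by 1.55 on the log2 scale (adjusted p = 1.9e-07), and Mrpl57 was at -1.32. The other large falls shrank, to -0.74 in Mrpl34, -0.76 in Mrpl20, -0.67 in Mrpl23 and -0.36 in Mrpl52, and all 4 stayed past the test. Mrps18a moved to -0.01 (adjusted p = 0.89), Mrpl11 to -0.11 (adjusted p = 0.188) and Mrps30 to -0.05 (adjusted p = 0.60), and Mrps12 turned to 0.28 (adjusted p = 0.0009). Mrpl33 and Mrps18c stood at 1.29 and 1.12 after the correction. Rescaling FPKM to an equal sum in each library, which gives TPM and moves the median of all genes to 0.14, left 43 members lower and 9 higher (median -0.33), with 38.0% of all genes lower and 47.8% higher. Across the values as deposited, TPM, quantile and median-of-ratios scaling and the length correction, 36 members were lower every time. The same count was not made over all tested genes.

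The other lists of mitochondrial translation together had 19 genes higher and 33 lower of 68 tested, or 27.9% and 48.5%, beside 41.9% and 43.7% of all tested genes, and the counts of each list below are read against the same background. Among ribosomal subunits with other names, Ptcd3, a small subunit protein that binds RNA, rose from 16.3 and 16.7 FPKM to 33.1, 34.1 and 34.9 FPKM (1.00, SE 0.0505, adjusted p = 3.67e-06), and Chchd1, also of the small subunit, fell from 115 and 108 FPKM to 43.1, 40.3 and 48.0 FPKM (-1.33, SE 0.0835, adjusted p = 1.07e-05). Aurkaip1 (-1.03), Gadd45gip1 (-0.65) and Dap3 (-0.19) were lower as well, Dap3 with an adjusted p of 0.017 that was 0.65 in TPM and 0.0758 without NSC replicate 1.

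Of 13 translation factors, 3 were higher and 6 lower. The elongation factors split, with Gfm1, which moves the ribosome along, higher (0.33) and Tufm, which brings aminoacyl-tRNA, and its exchange factor Tsfm lower (-0.32 and -0.80). Guf1, a back-translocating GTPase (0.90), and Mtfmt, which formylates the initiator tRNA (0.33), were higher. Taco1 (-0.85), an activator of translation of the Cox1 message, Oxa1l (-0.70), the insertase for newly made membrane proteins, the release factor Mtrf1 (-0.67) and Gfm2 (-0.39), which splits ribosomes for recycling, were lower. Mtif2 was at 0.02, Mrrf at 0.11 and Mtrf1l at -0.14, none past the test, and Mtif3 was listed at 0 in 1 library of each cell type. Without NSC replicate 1 the adjusted p of Gfm1 was 0.0562 and that of Mtrf1l 0.0343 (-0.22).

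Mitochondrial aminoacyl-tRNA enzymes were lower in 12 and higher in 2 of 20 (background 43.7% and 41.9%), led by Rars2, the arginyl-tRNA synthetase, at 18 ± 2.17 FPKM (SD, n = 2) in NSC and 6.41 ± 0.577 FPKM (SD, n = 3) in STO (-1.36). Ribosome assembly and rRNA modification factors had 9 higher and 9 lower of 24 tested, Ybey being listed at 0 in all libraries, and a median of 0.01 that was -0.02 and -0.03 under quantile and median-of-ratios scaling and 0.18 in TPM. In TPM and after the length correction 11 were higher and 7 lower. Mtg1, a GTPase that acts on the large subunit, fell from 12.02 to 3.40 FPKM (-1.57), and Nsun4, a methyltransferase of the small ribosomal RNA named after its value was seen, rose from 4.18 to 10.4 FPKM (1.14). Of the mitochondrial transcription and RNA genes, 4 of 6 were higher and 2 lower. The largest difference was a fall, that of Slirp (-0.996), the partner of Lrpprc in holding mitochondrial messages. Lrpprc itself was higher in STO (0.75), as were Polrmt, Tfam and Tfb2m. Import and matrix genes were lower in 11 and higher in 2 of 15, led by the outer membrane receptor Tomm20 (-1.09).

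**Figure D5:**
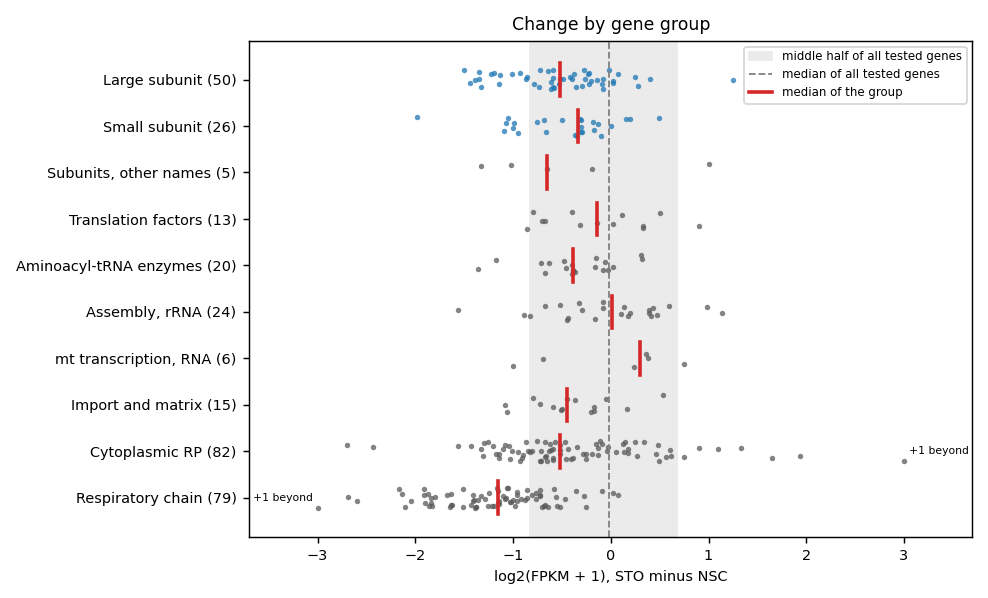
Difference on log2(FPKM + 1), STO minus NSC, of each tested gene by group, with the number of genes in brackets, the group median as a red bar and, in grey, the range from the lower to the upper quartile of all tested genes. Median bars stand at -0.52 for the large and -0.33 for the small subunit, at -0.52 for the cytoplasmic ribosomal proteins and at -1.15 for the respiratory chain.

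Nuclear-encoded subunits of the respiratory chain and ATP synthase, many of which join the products of this ribosome, were mostly lower in STO. Of 79 tested, 76 were lower and 0 higher by limma with a median of -1.15, beside 43.7% lower and 41.9% higher of all tested genes, and at an unadjusted p under 0.05 0 were higher. After the length correction 63 were lower and 6 higher. The cytoplasmic ribosomal proteins had a median of -0.52, with 50 of 82 lower and 16 higher, and turned to 21 lower and 37 higher after the length correction. The largest differences of these lists on the log2 scale belonged to genes listed at 0 in one cell type, Cox6b2 in STO and Rpl30 in NSC, for which no fold is given. The difference between these families was not tested.

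The ETS core shown above was found in most promoters of the members. In windows from 250 bases before to 50 after the start, found for 69 of the 78 members, CGGAAG was present in 39 (56.5%), against 35.3% of the tested genes and 18.8% of all genes in the table. The NRF1 motif was present in 13 (18.8%, against 11.8% of tested genes), and ATGGCGGC, bound by YY1, in 12 (17.4%, against 5.89%). The E-box CACGTG was in 5 (7.25%, against 11.9%). No matches of different motifs overlapped in a member, and 51 members held at least 1 of the 4. Of the lower members with a window, 28 of 50 held CGGAAG, and of the 5 higher members 4. The NRF1 and YY1 motifs were each in 10 of the 50 lower and 0 of the 5 higher members, and the E-box in 3 and 1. The median difference was -0.55 in members with CGGAAG and -0.34 in those without, and -0.59 and -0.41 for the YY1 motif. It went the other way for the NRF1 motif (-0.42 with, -0.50 without) and the E-box (-0.27 and -0.50). Motif shares among all lower or higher tested genes were not counted. These counts describe letters, not binding, and no test was made. Of factors that act on such promoters, Gabpa (0.44), Gabpb1 (0.29) and Yy1 (0.34) were higher in STO, and Nrf1 was at 0.01 and not past the test. Myc fell from 64.3 and 80.4 FPKM to 39.9, 41.2 and 40.2 FPKM (-0.82), and Esrra was lower as well (-0.70). Mycn, at 2.17 FPKM in NSC and 3.99 FPKM in STO in the mean (0.65), Pprc1 (0.77) and Ppargc1a (0.74) were higher. In all, 6 of the 10 listed regulators were higher and 2 lower, beside 41.9% and 43.7% of all tested genes.

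Many members share a start region with a gene on the other strand. Of 69 members, 21 (30.4%) had such a neighbour with a start within 500 bases in GRCm38, against 11.9% of the tested coding genes. Of 19 such pairs with both genes tested, 11 had both past the test, where 61.8% of the 513 pairs of this kind among all tested genes had. Both genes were lower in 9 of the 19 pairs, against 21.1% of all such pairs, both higher in 1, against 77 of the 513, and opposite in 1, against 25.7%. Each of the 19 pairs holds a member, and members were mostly lower, while the 513 pairs were not matched for this. These shares therefore do not show that the 2 genes of a pair change together, and no test was made. The pair that rose was Mrps18c with Helq, a DNA helicase 159 bases away, which went from 2.03 and 2.26 FPKM to 8.89, 7.90 and 8.61 FPKM (1.59, SE 0.0695). The opposite pair was Mrpl30, lower at -1.23, with Mitd1 66 bases away, higher at 0.61. Mrpl46 and Mrps11, subunits of the large and small ribosome part with starts 42 bases apart, were both lower, at -0.61 (adjusted p = 0.000278) and -0.31 (adjusted p = 0.0315). Their ratio was 0.595 and 0.494 in NSC and 0.422, 0.426 and 0.438 in STO.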

How the data were processed

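RNA-seq was examined for 2 NSC and 3 STO samples, grouped by their labels. The authors prepared stranded, poly(A)-selected libraries, aligned reads to mm9 with Hisat2 and quantified RefSeq transcripts with Cufflinks 2.2.1, and deposited FPKM values with the bounds of their confidence intervals. The strand setting of the counting is not given in the sources used here. Depth is divided out in FPKM, no counts were used, and an exact 0 can be a failed estimate.

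Symbols were matched through RefSeq identifiers (39951 of 40201 transcripts, 99.4%), and FPKM were summed per symbol. Symbols and neighbours came from GRCm38.p6, loci from the deposited files, and lengths from GENCODE vM1 on mm9, as the longest coding transcript of each symbol. Genes with a mean of at least 1 FPKM in NSC or STO were tested on log2(FPKM + 1) by limma (version 3.58.1, R 4.3.3) with a moderated, intensity-dependent variance, Benjamini-Hochberg adjusted over 12277 genes, at a threshold of 0.05. Fold changes on this scale understate those of low genes. The script was tested on simulated data. No 2 libraries shared a value of a tested member. One cell type marker is not reported here.

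Members and lists were chosen with earlier results of these data known. Named were up to 6 members each that rose or fell most among those past the test without overlap (5 rose), the 5 highest and 3 lowest by mean level, a fixed set of paralogs and functional subunits, subunits with other names, translation factors, and the largest change of each other list. Other pseudocounts, filters, scalings, a length correction (lowess, fraction 0.3, 96.1% of tested genes), single transcripts, a replicate block and each library left out were tried. Replicate numbers are not stated to pair samples. Deviations of same-numbered samples correlated at 0.0029 and 0.065. With 2 NSC libraries, whose deviations mirror each other, these values cannot decide whether samples were paired.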

Additional observations from a re-analysis of the deposited data

How the results depend on the processing

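With FPKM rescaled to equal sums, 9 members were higher, the median difference was -0.33 and the log2 ratios of the sum and the median level were -0.37 and -0.53, against 5, -0.49, -0.54 and -0.70 as deposited. With the length correction, 21 members were higher and the median was -0.18. Requiring a difference of at least 1 on the log2 scale left 1 member higher and 17 lower, and 1 gene higher and 5 lower in the other mitochondrial translation lists. With each library left out in turn, 3 (without NSC replicate 1) to 6 members were higher and 43 to 55 lower, the median difference ranged from -0.54 to -0.41, the log2 ratio of the sum from -0.60 to -0.48 and that of the median level from -0.77 to -0.63, and the other lists held 15 to 18 higher and 26 to 34 lower genes. Leaving out a library also leaves fewer samples, and in the NSC case a lone library assumed to vary like the others. Over 47 named genes and 752 values, 711 kept direction and side of the threshold, 23 lost the call, 5 gained one and 13 changed sign. The sign changes were Mrpl35 in TPM (0.14) and without STO replicate 2 (0.0070; lowest with a library left out -0.058), Mrpl58 and Gfm2 by their highest transcript (0.30 and 0.085), Mrps12 after the length correction (0.28), Mtrf1l under quantile scaling (0.11), Mtif3 without NSC replicate 1 (-0.33; highest 1.34 without NSC replicate 2), and Mtif2 under quantile (-0.0095) and median-of-ratios scaling (-0.014), the length correction (-0.019), by its highest transcript (-0.21), and without NSC replicate 1 (-0.057) or STO replicate 1 (-0.0048), with 0.10 at most. Their cause was not tested.

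With the replicate number as a block, 5 members were higher and 55 lower with a median of -0.54. In the other lists 18 genes were higher and 33 lower. No label says that the number pairs samples, and STO replicate 3 has no partner. FPKM carry no counts, so the precision of low members rests on the implied fragments.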
